A study of Mus musculus with 6 samples.

Results

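The genes described here build the nuclear pore complex or carry cargo through it. They were all non-control probes whose accession mapped to a mouse symbol of the form Nup plus a number, to a symbol beginning Kpna, Kpnb, Ipo, Xpo or Tnpo, or to Ran, Ranbp1, Ranbp2, Rangap1, Rcc1 or Cse1l. Of 52 symbols that fit this choice in the RefSeq gene table, 31 had a probe on the array. These 31 genes were measured by 45 of 41006 probes, 14 of them by 2 probes and 17 by 1. The other 21 symbols, among them Ranbp1, Nup50, Nup62, Nup85, Nup188, Nup205 and Xpo5, are not analysed here. All 31 genes entered the test, beside 35792 genes in all and 12116 genes with a symbol. All 31 were also well above background on all 6 arrays, as were 95.5% of the named genes.

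The nuclear pore complex is a channel through the nuclear envelope, built from nucleoporins that form outer rings, an inner ring, a central channel, cytoplasmic filaments, a nuclear basket and a membrane anchor. Importins bind cargo in the cytoplasm and release it in the nucleus when they meet Ran bound to GTP, and exportins bind their cargo together with that form of Ran. Rcc1 charges Ran with GTP on chromatin, and Rangap1 triggers GTP hydrolysis on the cytoplasmic side. In mouse cells the make-up of this machinery is known to change with differentiation. Kpna2 carries Oct4 into the nucleus of embryonic stem cells and gives way to Kpna1 as neural cells form. Nup210 is known to be needed for the differentiation of muscle and neural cells, and Nup133 for that of neural cells.

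The study measured RNA from 3 kinds of cultured mouse cells on Agilent oligonucleotide arrays, with 2 arrays each, described as biological replicates. Each array held Cy3-labelled sample and a Cy5-labelled reference pooled from 11 mouse cell lines, with the dyes never swapped. Multipotent adult progenitor cells (MAPC) were clone 2 (high Oct4), grown from bone marrow cultures that lost their CD45+ and Ter119+ cells by depletion at 4 weeks, with 10 cells then seeded in each well. This clone had passed more than 80 population doublings and was kept in 5% O2 and 6% CO2 with 2% serum, LIF, and EGF and PDGF-BB at 10 ng/mL. Both MAPC arrays came from this 1 clone, so differences between clones were not measured. Embryonic stem cells (ESC, C57BL/6) were grown with 15% serum and LIF on irradiated embryonic fibroblasts and plated without feeders before RNA was taken. Neurospheres (NS, C57BL/6), clusters of neural progenitors, came from the forebrain of E11.5 embryos and grew with bFGF and EGF at 20 ng/mL. Cell type and medium differed together and cannot be told apart. An oxygen level was given for MAPC alone, so whether oxygen differed between the groups is not known.

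By their medians, the ESC and NS marker lists followed the labels. The 9 measured ESC markers had median log2 ratios to the reference of -0.03 and -0.03 on the MAPC arrays, 4.22 and 4.17 on the ESC arrays, and -0.08 and -0.04 on the NS arrays. The 9 NS markers had -0.11 and -0.15 in MAPC, 0.04 and 0.25 in ESC, and 3.21 and 3.18 in NS. Single genes departed from this. Sox2, which is in both lists, had means of 5.47 in ESC and 5.55 in NS. Esrrb had means of 0.23 in ESC and 0.24 in NS, and Zfp42 had 3.41 and 3.24 on the MAPC arrays. Of the ESC markers, 5 and 6 lay below the brightest negative control on the MAPC arrays, and 3 and 6 on the NS arrays. Of the NS markers, 5 and 9 did on the MAPC arrays, and 1 and 3 on the ESC arrays. Pou5f1, which encodes Oct4, had 0.90 and 1.33 in MAPC, 3.38 and 2.90 in ESC, and -0.25 and -0.29 in NS. The 8 measured fibroblast markers stood at -2.81 and -2.93 in MAPC, -0.04 and -0.15 in ESC, and -1.53 and -1.48 in NS, so they were highest in the cells that had been grown on feeders. Of these 8 markers 6 were called higher in ESC than in NS, Lum was called lower (-1.06) and Fbln2 was not called (-0.0075). The largest of these differences was that of Postn, with 3.06 and 2.32 in ESC against -1.09 and -0.99 in NS. None was below the brightest negative control on an ESC array, against 0 and 1 on the NS arrays. The part of feeder RNA in the ESC values below was not tested. The 6 mature blood markers had medians between -0.67 and -0.26 on all arrays. One of them, the macrophage gene Lyz2, had -2.25 and -1.90 in MAPC, 0.82 and 0.98 in ESC, and -2.16 and -2.01 in NS, and was called in both comparisons with ESC, while Ptprc and Spi1 were called in none. The part of such cells in the ESC values was not tested. The 4 endoderm markers measured were listed because earlier results of these data had them high in these MAPC, so they are no check of identity. Of these, Sox17 had 5.30 and 5.32 in MAPC, -0.11 and -0.13 in ESC, and -0.38 and -0.32 in NS.

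By group mean, ESC held the highest level of most pore and transport genes and NS the lowest, while the place of MAPC varied by gene. Ran is left out of this order because its probe was saturated. Of the other 30 genes, ESC had the highest group mean for 18, MAPC for 10 and NS for 2. NS had the lowest for 23, MAPC for 5 and ESC for 2. These ranks do not use the calls described below. The same ranks were not counted over all genes, so they do not show whether this order is particular to these genes. Among the 18 genes highest in ESC, Kpna2, Kpna4, Nup160 and Rcc1 were not called between MAPC and ESC. The dimmer probes of Nup160 and Rcc1 were called higher in MAPC than in ESC. MAPC lay between ESC and NS for 15. In MAPC 27 of these 30 genes had a mean ratio above the reference, in ESC all 30 and in NS 24. With Ran included, the median log2 ratio was 0.79 in MAPC, 1.23 in ESC and 0.59 in NS. Among named genes the share above the reference was 50.3% in MAPC, 51.9% in ESC and 48.7% in NS. As these are RNA pools of whole cultures, fewer cells expressing a gene and less RNA per cell cannot be told apart.

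**Figure D1:**
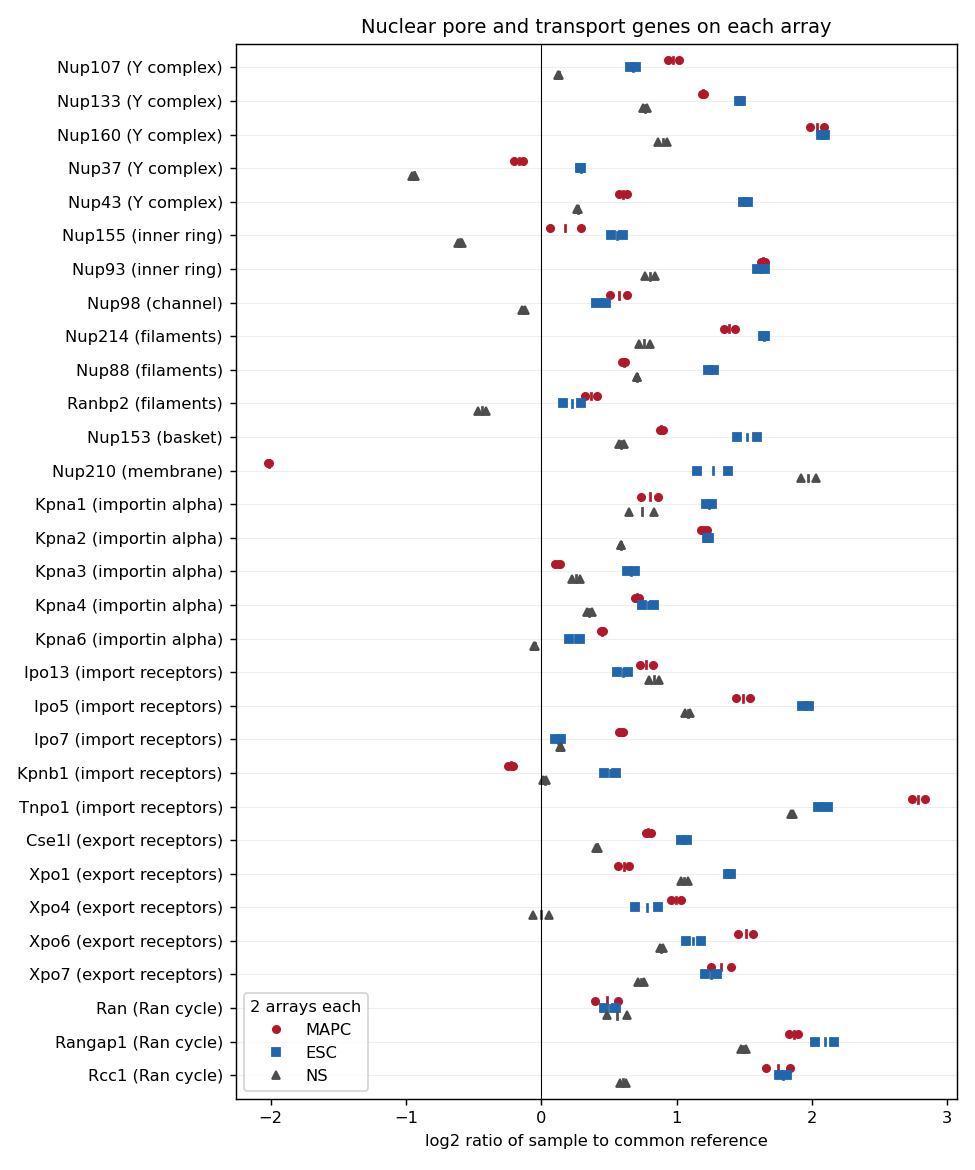
Log2 ratio of sample to common reference on each of the 6 arrays for the 31 genes, ordered by role; points are arrays, short bars are means of 2 arrays. The NS mean lies furthest left for 23 genes, and Nup210 in MAPC stands alone near -2.

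Differences between cell types were tested with limma at a Benjamini-Hochberg adjusted p of 0.05 over all genes tested, and a gene past that threshold is called higher or lower. Between MAPC and ESC, 5 of the 31 genes were higher in MAPC, 15 were lower and 11 were not called. Of all genes tested, 38.1% were called in that comparison, 15.9% higher and 22.1% lower, and of named genes 50.3%, 21% higher and 29.3% lower. The median log2 difference of the 31 genes was -0.08, against 0.01 over all genes. Between MAPC and NS, 23 genes were higher in MAPC, 3 were lower and 5 were not called. All genes gave 43.7% called, 21.2% higher and 22.5% lower, and named genes 55.1%, 28.8% higher and 26.3% lower. The median was 0.45, against 0.03 over all genes. Between ESC and NS, 27 genes were higher in ESC, 2 were lower and 2 were not called. All genes gave 38.2% called, 19.8% higher and 18.4% lower, and named genes 51%, 29.4% higher and 21.6% lower. The median was 0.57, against 0.01 over all genes. The 3 comparisons share arrays, so their counts are not independent of each other. Using the sample channel alone removed the reference and replaced loess with quantile normalization between arrays, so these changes cannot be told apart. This setting left 4 genes higher and 7 lower in MAPC than in ESC. Against NS it left 18 and 3 in MAPC, and 21 and 1 in ESC. The calls lost in this way were those of Cse1l, Ipo5, Kpna1, Kpna3, Kpna6, Nup133, Nup155, Nup214 and Rangap1 between MAPC and ESC, of Cse1l, Ipo5, Nup43, Nup153 and Rangap1 between MAPC and NS, and of Ipo13, Kpna3, Kpna6, Rangap1, Tnpo1, Xpo1 and Xpo6 between ESC and NS.

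Probe brightness bears on how readily a gene is called. The 3239 named genes within the middle brightness range of the 31 genes (log2 intensity from 9.35 to 11.4) were called higher in ESC than in NS for 37.9% and lower for 24%. They were called higher in MAPC than in NS for 37.1% and lower for 29.4%, and between MAPC and ESC for 25.2% higher and 35.9% lower. The members' counts of higher genes in ESC and in MAPC against NS, 87.1% and 74.2% of 31, lay well above these shares. Their counts between MAPC and ESC, 16.1% higher and 48.4% lower, lay nearer to them. Most differences were small. At least a 2-fold difference with a call was found for no gene higher and for 1 lower in MAPC than in ESC, for 2 higher and 1 lower in MAPC than in NS, and for 5 higher and none lower in ESC than in NS. Among all genes these shares were 2.95% and 5.63%, 4.44% and 6.99%, and 4.72% and 4.26%, each higher and then lower. The median difference between replicate arrays over the 31 genes was 0.0712 in MAPC, 0.0635 in ESC and 0.0352 in NS.

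**Figure D2:**
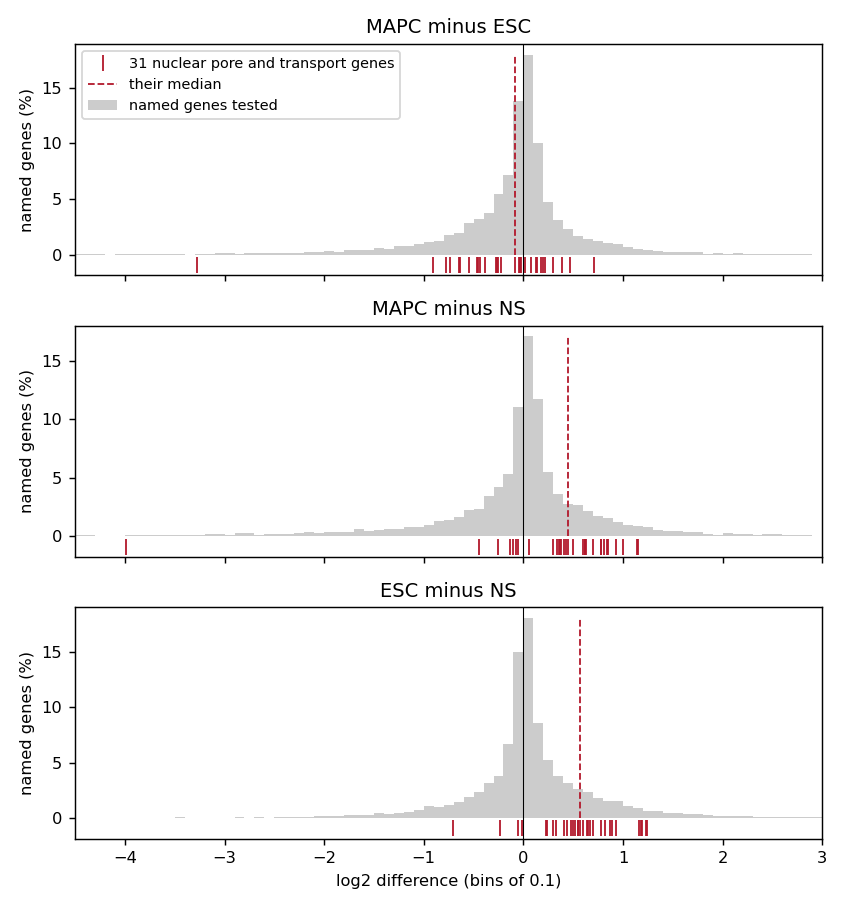
Share of named genes (%) by log2 difference in bins of 0.1 (grey) for the 3 comparisons, with each of the 31 genes as a red tick and their median as a dashed line. The median lies at -0.08 for MAPC minus ESC, 0.45 for MAPC minus NS and 0.57 for ESC minus NS; bins beyond the plotted range from -4.5 to 3 are not drawn.

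Nup210, the membrane-spanning nucleoporin, ran against this order and had the largest differences of the 31 genes in both comparisons with MAPC. Its log2 ratio was -2.02 and -2.01 on the MAPC arrays, 1.38 and 1.15 on the ESC arrays, and 2.03 and 1.92 on the NS arrays. The 3 groups did not overlap, with MAPC far below both others and NS highest. Nup210 was 9.7-fold lower in MAPC than in ESC (log2 difference -3.28 ± 0.082 SE, n = 2 arrays each, adjusted p = 8.6e-08). It was 15.8-fold lower in MAPC than in NS (-3.99 ± 0.082, adjusted p = 2.11e-08). It was 1.63-fold lower in ESC than in NS (-0.71 ± 0.082, adjusted p = 0.000247), against the direction of most members.

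The MAPC signal of Nup210 was close to the floor of the arrays. Its background-subtracted sample intensity was 27.1 and 29.4 in MAPC, against 822 and 683 in ESC and 1370 and 1524 in NS. Both MAPC spots were marked well above background and exceeded 99.7% of 314 negative control spots, but they lay below the brightest negative control, at 39.9 and 165. The size of the difference therefore turned on background correction. Over all alternatives it ran between -4.31 and -1.71 for MAPC minus ESC and between -5.05 and -2.35 for MAPC minus NS, and the call held in each of them. Nup210 was read by a single probe, whose sequence is shown because these values rest on it alone. It is in lower case, as no part of it is singled out.
Nup210 probe: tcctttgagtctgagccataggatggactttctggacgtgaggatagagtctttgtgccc

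The Y complex, which forms the outer rings of the pore, was lower in NS throughout. All 5 of its genes among the 31, Nup37, Nup43, Nup107, Nup133 and Nup160, were called higher in MAPC than in NS (log2 differences from 0.33 to 1.14) and higher in ESC than in NS (0.55 to 1.24). Between MAPC and ESC, Nup37, Nup43 and Nup133 were lower in MAPC, Nup107 was higher and Nup160 was not called. This role held 3 of the 5 genes that differed at least 2-fold between ESC and NS.

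Nup43 had log2 ratios of 0.63 and 0.57 in MAPC, 1.49 and 1.53 in ESC, and 0.27 and 0.26 in NS. ESC stood apart from both other groups. It was lower in MAPC than in ESC by -0.91 ± 0.0529 (adjusted p = 5.9e-06), and higher in ESC than in NS by 1.24 ± 0.0529, or 2.36-fold (adjusted p = 1.06e-06). The difference of 0.33 between MAPC and NS was also called. Its 2 probes gave nearly the same values, with -0.86 for MAPC minus ESC and 1.21 for ESC minus NS from the dimmer one. They share 40 of their 60 bases, marked in capitals, and are not separate readings of the transcript.
Nup43 brighter probe: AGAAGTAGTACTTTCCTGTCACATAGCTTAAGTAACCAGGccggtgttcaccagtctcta
Nup43 dimmer probe: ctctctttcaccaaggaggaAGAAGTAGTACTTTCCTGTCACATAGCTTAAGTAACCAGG

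Nup37 had log2 ratios of -0.20 and -0.13 in MAPC, 0.29 and 0.29 in ESC, and -0.95 and -0.94 in NS, so the 3 groups were fully separate. It was higher in ESC than in NS by 1.23 ± 0.0531, or 2.35-fold (adjusted p = 1.11e-06), and lower in MAPC than in ESC by -0.46 ± 0.0531 (adjusted p = 0.000272). Nup160 had 1.98 and 2.09 in MAPC, 2.10 and 2.07 in ESC, and 0.86 and 0.93 in NS. MAPC and ESC overlapped in this gene, and both stood above NS. The difference was 1.14 ± 0.0599 for MAPC minus NS (2.21-fold, adjusted p = 2.21e-06) and 1.19 ± 0.0599 for ESC minus NS (2.28-fold, adjusted p = 2.48e-06). A second, dimmer Nup160 probe was called in the same directions with smaller differences of 0.47 and 0.22, and it was also called higher in MAPC than in ESC (0.25, adjusted p = 0.0076).

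Nup107 was the only one of these 5 called higher in MAPC than in ESC, by 0.30 ± 0.0563 (adjusted p = 0.00376), with ratios of 0.93 and 1.02 in MAPC, 0.65 and 0.70 in ESC, and 0.12 and 0.13 in NS. Both of its probes were called higher in all 3 comparisons. Nup133, whose protein is needed for neural differentiation in mouse, had 1.18 and 1.20 in MAPC, 1.46 and 1.48 in ESC, and 0.75 and 0.78 in NS. It was thus lowest in the neural cells, by 0.70 for ESC minus NS and 0.43 for MAPC minus NS, both called.

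The inner ring genes Nup93 and Nup155 were also called higher in MAPC and in ESC than in NS. Nup155, a scaffold protein, had ratios of 0.06 and 0.29 in MAPC, 0.60 and 0.51 in ESC, and -0.62 and -0.59 in NS. The MAPC arrays differed by 0.231, the widest replicate gap among the 31 genes, yet the groups stayed separate. Nup155 was higher in ESC than in NS by 1.16 ± 0.082 (2.24-fold, adjusted p = 1.51e-05), and lower in MAPC than in ESC by -0.38 ± 0.082 (adjusted p = 0.0073). Its dimmer probe was called in the same directions, with 0.73 (1.66-fold) for ESC minus NS and -0.33 for MAPC minus ESC. For MAPC minus NS the dimmer probe gave 0.40, against 0.78 by the brighter one. Nup93 had 1.62 and 1.65 in MAPC, 1.60 and 1.65 in ESC, and 0.84 and 0.77 in NS, so MAPC and ESC overlapped above NS. Its differences of 0.83 and 0.82 against NS rest on the brighter probe. The dimmer one gave 0.10 and 0.08, neither called, and its signal lay below the brightest negative control on 5 arrays.

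The central channel, the filaments and the basket were mostly higher in ESC than in NS as well. Nup98, a channel protein that also binds chromatin, was called higher by 0.70 in MAPC than in NS and by 0.57 in ESC than in NS. Of the 3 filament genes, Nup88, Nup214 and Ranbp2, all were called higher in ESC than in NS (0.55, 0.89 and 0.67), and Nup88 and Nup214 were lower in MAPC than in ESC (-0.65 and -0.26). Without MAPC replicate 1 the second of these was -0.22 and not called (adjusted p = 0.059). Nup88, which holds Nup214 at the pore, had 0.62 and 0.60 in MAPC, 1.28 and 1.23 in ESC, and 0.71 and 0.71 in NS. The groups did not overlap, with MAPC lowest, but the difference of -0.10 between MAPC and NS was called only with no background subtraction (-0.12, adjusted p = 0.00739). Ranbp2, a SUMO ligase of the filaments, was called higher in MAPC than in NS by 0.81. Nup153, a basket protein linked to gene silencing in mouse ESC, had 0.90 and 0.88 in MAPC, 1.59 and 1.45 in ESC, and 0.61 and 0.57 in NS. It was lower in MAPC than in ESC by -0.63 (adjusted p = 0.000117) and higher in ESC than in NS by 0.93 (adjusted p = 1.22e-05). Its second probe lay below the brightest negative control on all 6 arrays and was called in no comparison.

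The importin alpha genes encode the adaptors that recognise the classical nuclear localisation signal and bind Kpnb1. All 5 measured, Kpna1, Kpna2, Kpna3, Kpna4 and Kpna6, were called higher in ESC than in NS, by 0.30 to 0.65. Against NS, MAPC were called higher for Kpna2, Kpna4 and Kpna6 and not called for Kpna1 and Kpna3. Between MAPC and ESC, Kpna1 and Kpna3 were lower in MAPC, Kpna6 was higher, and Kpna2 and Kpna4 were not called.

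Kpna2, the adaptor that carries Oct4, had ratios of 1.22 and 1.18 in MAPC, 1.23 and 1.24 in ESC, and 0.59 and 0.59 in NS. MAPC and ESC lay within 0.06 of each other, while NS stood well below both. The difference was 0.61 ± 0.0511 for MAPC minus NS (adjusted p = 3.03e-05) and 0.65 ± 0.0511 for ESC minus NS (adjusted p = 2.83e-05), and that of -0.03 for MAPC minus ESC was not called (adjusted p = 0.684). The dimmer Kpna2 probe gave 0.58 for each of the first 2. The probes share 51 of their 60 bases, in capitals, and so read the same stretch of the transcript.
Kpna2 brighter probe: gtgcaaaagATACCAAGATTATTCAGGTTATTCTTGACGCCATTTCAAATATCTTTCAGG
Kpna2 dimmer probe: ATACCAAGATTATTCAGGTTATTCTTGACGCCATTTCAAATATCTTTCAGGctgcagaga

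In RNA, Kpna1, the adaptor known to take over as neural cells form, was not higher in NS, which are neural progenitors. Its protein was not measured. Its ratios were 0.73 and 0.86 in MAPC, 1.26 and 1.21 in ESC, and 0.84 and 0.65 in NS. ESC lay above both other groups, which overlapped each other. Kpna1 was lower in MAPC than in ESC by -0.44 ± 0.0781 (adjusted p = 0.00277) and higher in ESC than in NS by 0.50 ± 0.0781 (adjusted p = 0.00137), and was not called between MAPC and NS (0.06, adjusted p = 0.607). The NS arrays differed by 0.185, the widest replicate gap in that group. With the sample channel alone the difference between MAPC and ESC shrank to -0.21 and was not called (adjusted p = 0.22).

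Kpna3 had ratios of 0.10 and 0.14 in MAPC, 0.69 and 0.63 in ESC, and 0.22 and 0.28 in NS by its brighter probe. By that probe it was lower in MAPC than in ESC by -0.54 ± 0.0552 (adjusted p = 0.00013) and was not called between MAPC and NS (-0.13, adjusted p = 0.0906). Its dimmer probe gave 0.55 for MAPC minus NS, called higher (adjusted p = 0.000628), and -0.12 for MAPC minus ESC, not called, so the place of MAPC is unsettled for this gene. Both probes were called higher in ESC than in NS, by 0.41 and 0.67. Kpna4, a close relative of Kpna3, had 0.69 and 0.72 in MAPC, 0.74 and 0.83 in ESC, and 0.34 and 0.37 in NS. MAPC and ESC were close and NS was lower, by 0.35 ± 0.0561 for MAPC minus NS and 0.43 ± 0.0561 for ESC minus NS (adjusted p = 0.00126 and 0.000466).

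Kpna6 had ratios of 0.46 and 0.44 in MAPC, 0.29 and 0.20 in ESC, and -0.05 and -0.05 in NS. The groups did not overlap, but the probe was dim, with a sample signal below the brightest negative control on 5 arrays. The difference of 0.20 ± 0.0543 between MAPC and ESC (adjusted p = 0.0211) lost its call in 6 of 18 alternatives, including the removal of MAPC replicate 1 (0.19), MAPC replicate 2 (0.21) or ESC replicate 2 (0.16). The difference of 0.50 ± 0.0543 between MAPC and NS (adjusted p = 0.000149) kept its call, although its size ran between 0.11 and 1.07 over the alternatives. Kpna6 was higher in ESC than in NS by 0.30 ± 0.0543 (adjusted p = 0.00319). This call was lost with the sample channel alone (0.16, adjusted p = 0.314).

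The import receptors divided by gene. Of Kpnb1, Ipo5, Ipo7, Ipo13 and Tnpo1, 3 were called higher and 1 lower in MAPC than in NS, 3 higher and 1 lower in ESC than in NS, and 2 higher and 2 lower in MAPC than in ESC. Tnpo1, which imports RNA-binding proteins, had the highest ratio to the reference of the 31 genes in MAPC, with 2.83 and 2.74, against 2.05 and 2.11 in ESC and 1.85 and 1.86 in NS. It was higher in MAPC than in ESC by 0.70 ± 0.0583 (adjusted p = 4.04e-05) and than in NS by 0.93 ± 0.0583 (adjusted p = 5.92e-06). Both Tnpo1 probes were called in these 2 comparisons. The difference of 0.23 between ESC and NS was not called in 9 of 18 alternatives, including the removal of ESC replicate 2 (0.19), NS replicate 1 (0.22) or NS replicate 2 (0.23), and had the opposite sign with the dimmer probe (-0.26, adjusted p = 0.0664).

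Kpnb1, the receptor that carries importin alpha with its cargo, was the single gene whose probes were called in opposite directions. The brighter probe had ratios of -0.21 and -0.25 in MAPC, 0.46 and 0.55 in ESC, and 0.01 and 0.03 in NS, with the groups separate and MAPC lowest. By it Kpnb1 was lower in MAPC than in ESC by -0.73 ± 0.0557 (adjusted p = 2.5e-05) and lower in MAPC than in NS by -0.25 ± 0.0557 (adjusted p = 0.00736). The dimmer probe gave -0.09 for MAPC minus ESC, not called, and 0.19 for MAPC minus NS, called higher (adjusted p = 0.0318). Both probes were bright, with background-subtracted sample intensities of 3053 or more on every array for the first and of 3012 or more for the second. Both were called higher in ESC than in NS, by 0.48 and 0.28. The direction between MAPC and NS is therefore unsettled. The probes are shown because they share no run longer than 4 bases.
Kpnb1 brighter probe: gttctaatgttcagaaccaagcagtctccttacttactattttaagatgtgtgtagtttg
Kpnb1 dimmer probe: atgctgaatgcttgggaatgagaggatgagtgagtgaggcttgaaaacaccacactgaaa

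Ipo7, which imports ribosomal proteins, had 0.60 and 0.58 in MAPC, 0.15 and 0.10 in ESC, and 0.14 and 0.15 in NS. It was called higher in MAPC than in ESC by 0.46 and than in NS by 0.45, and ESC and NS overlapped. Its signal lay below the brightest negative control on 3 arrays, and the difference between MAPC and ESC ran between 0.12 and 0.81 over the alternatives while the call held. Ipo5, another importer of ribosomal proteins and of histones, had 1.54 and 1.43 in MAPC, 1.93 and 1.98 in ESC, and 1.10 and 1.06 in NS. It was called lower in MAPC than in ESC (-0.46) and higher in ESC than in NS (0.87). Ipo13, which works in both directions, was called only as lower in ESC than in NS (-0.23, adjusted p = 0.0211). That call was lost in 4 of 18 alternatives, among them the removal of ESC replicate 2 (-0.193) or of NS replicate 1 (-0.195). With the replicate number as a block, Ipo13 was also called higher in MAPC than in ESC (0.17, adjusted p = 0.0318, against 0.0655 without the block).

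All 5 export receptors were called higher in ESC than in NS, by 0.23 to 0.78. Xpo1, the receptor for cargo with a leucine-rich export signal, had 0.57 and 0.64 in MAPC, 1.38 and 1.40 in ESC, and 1.03 and 1.08 in NS. MAPC lay below both other groups, by -0.78 ± 0.0552 against ESC (adjusted p = 1.7e-05) and by -0.45 ± 0.0552 against NS (adjusted p = 0.000297). Cse1l, which returns importin alpha to the cytoplasm, had 0.81 and 0.77 in MAPC, 1.03 and 1.08 in ESC, and 0.41 and 0.42 in NS, and all 3 differences were called.

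Xpo4, Xpo6 and Xpo7 stood higher in MAPC than in NS. Xpo4 had 1.03 and 0.96 in MAPC, 0.86 and 0.69 in ESC, and 0.06 and -0.06 in NS. It was higher in MAPC than in NS by 1.00 ± 0.0759 (adjusted p = 1.85e-05), just short of 2-fold, and its difference from ESC of 0.22 was not called (adjusted p = 0.0604), but was called without ESC replicate 1 (0.30, adjusted p = 0.0247) and with the replicate block (adjusted p = 0.018). The size against NS ran between 0.30 and 1.63 over the alternatives, its signal lay below the brightest negative control on 3 arrays, and its second, dimmer probe gave 0.17, not called. Xpo6, the exporter of actin, had 1.45 and 1.56 in MAPC, 1.18 and 1.07 in ESC, and 0.90 and 0.88 in NS. It was called higher in MAPC than in ESC (0.39) and than in NS (0.62). Its difference of 0.23 between ESC and NS lost its call in 6 of 18 alternatives, including the removal of ESC replicate 1 (0.18), NS replicate 1 (0.24) or NS replicate 2 (0.23). Xpo7 was called higher in MAPC than in NS by 0.60 and in ESC than in NS by 0.52.

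Of the Ran cycle genes, Rcc1 was the one with the largest difference. Its ratios were 1.66 and 1.84 in MAPC, 1.82 and 1.75 in ESC, and 0.58 and 0.63 in NS. MAPC and ESC overlapped and NS lay more than 1 log2 unit below both. Rcc1 was higher in MAPC than in NS by 1.15 ± 0.0711 (2.21-fold, adjusted p = 5.58e-06) and higher in ESC than in NS by 1.18 ± 0.0711 (2.27-fold, adjusted p = 6.34e-06). A second probe was called in the same directions (1.02 and 0.74), and was also called higher in MAPC than in ESC (0.28, adjusted p = 0.0298).

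Rangap1 had ratios of 1.83 and 1.90 in MAPC, 2.02 and 2.16 in ESC, and 1.47 and 1.51 in NS, in 3 separate groups. It was higher in ESC than in NS by 0.60 ± 0.0651 (adjusted p = 0.000172) and in MAPC than in NS by 0.37 ± 0.0651 (adjusted p = 0.0022). With the sample channel alone the second of these turned to -0.04 and the first shrank to 0.21, neither called. The difference of -0.23 ± 0.0651 between MAPC and ESC (adjusted p = 0.0268) lost its call in 7 of 18 alternatives, including the removal of MAPC replicate 1 (-0.19), MAPC replicate 2 (-0.26) or ESC replicate 2 (-0.16). Ran itself had 0.40 and 0.57 in MAPC, 0.46 and 0.55 in ESC, and 0.48 and 0.64 in NS. The reference signal of its probe was saturated on all 6 arrays and the sample signal on 3, MAPC replicate 1 and both ESC arrays, so these ratios give neither a fold change nor an order of the groups.

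**Figure D3:**
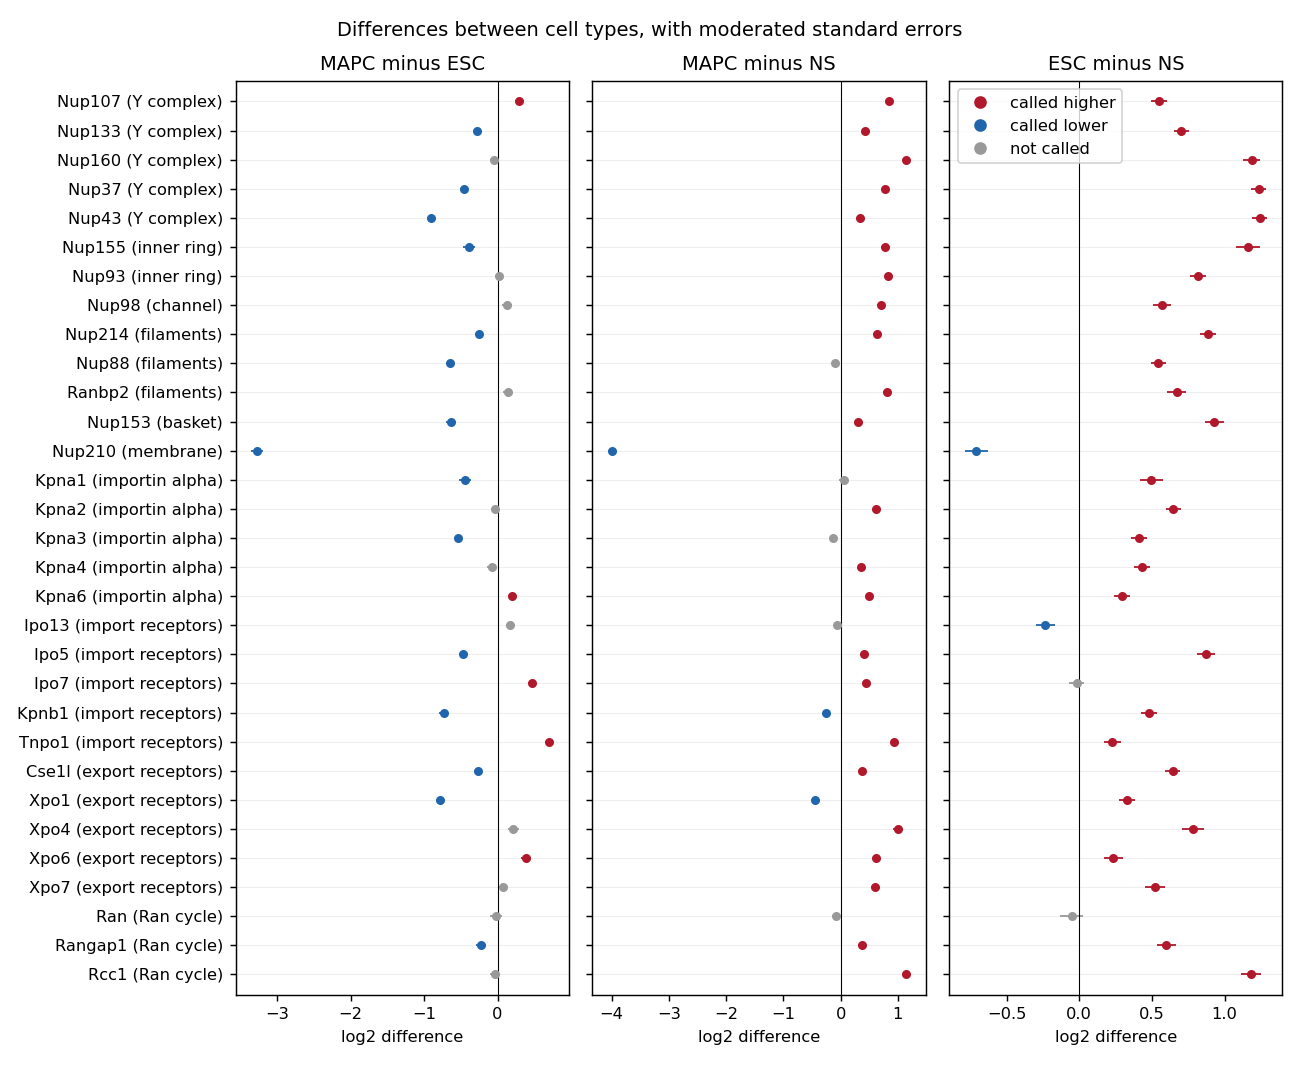
Log2 difference of each of the 31 genes with its moderated standard error in the 3 comparisons, named above each panel; the panels have different scales. Red marks a call as higher (5, 23 and 27 genes), blue a call as lower (15, 3 and 2 genes) and grey no call; Nup210 lies at -3.28, -3.99 and -0.71.

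Seen by compartment, the 13 genes of the pore itself and the 18 genes of receptors and the Ran cycle moved alike against NS. Both sets were mostly higher in MAPC and in ESC than in NS. Between MAPC and ESC the pore genes were mostly lower in MAPC, while the other set had calls in both directions and a median near 0. Of the pore genes, 1 was higher and 8 were lower in MAPC than in ESC, 11 higher and 1 lower in MAPC than in NS, and 12 higher and 1 lower in ESC than in NS, with median log2 differences of -0.28, 0.70 and 0.82. Of the receptors and Ran cycle genes, the counts were 4 and 7, 12 and 2, and 15 and 1, with medians of -0.03, 0.39 and 0.46. Among named genes, 21% were higher and 29.3% lower in MAPC than in ESC. Against NS, 28.8% were higher and 26.3% lower in MAPC, and 29.4% and 21.6% in ESC. Of the 8 pore genes lower in MAPC than in ESC, Nup133, Nup155 and Nup214 lost that call with the sample channel alone. The dimmer Nup153 probe gave 0.08 for that comparison, not called. The difference between the compartments was not tested.

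Replicates 1 and 2 of the 3 groups had their images extracted on 2 different days, so each day held 1 array of every group. Within replicate 1 the median difference of the 31 genes was -0.16 for MAPC minus ESC, 0.47 for MAPC minus NS and 0.55 for ESC minus NS. Within replicate 2 it was -0.11, 0.43 and 0.61.

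The 14 genes with 2 probes show how far a result depends on the probe. Over these genes and the 3 comparisons there were 42 pairs of values. Both probes were called in the same direction in 21, in opposite directions in 1 (Kpnb1), only the brighter was called in 11, only the dimmer in 4 and neither in 5. For the pairs of Kpna2 and Nup43, which overlap in sequence, the values lay within 0.07 of each other in every comparison. No other pair shared a run of more than 7 bases. The dimmer probe gave smaller differences for Kpna2, Kpna4, Nup93, Nup153, Nup155, Nup160, Rcc1 and Xpo4 in both comparisons with NS. It gave larger ones for Nup107. For Tnpo1 it gave 0.35 against 0.93 in MAPC minus NS, and -0.26 against 0.23 in ESC minus NS.

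**Figure D4:**
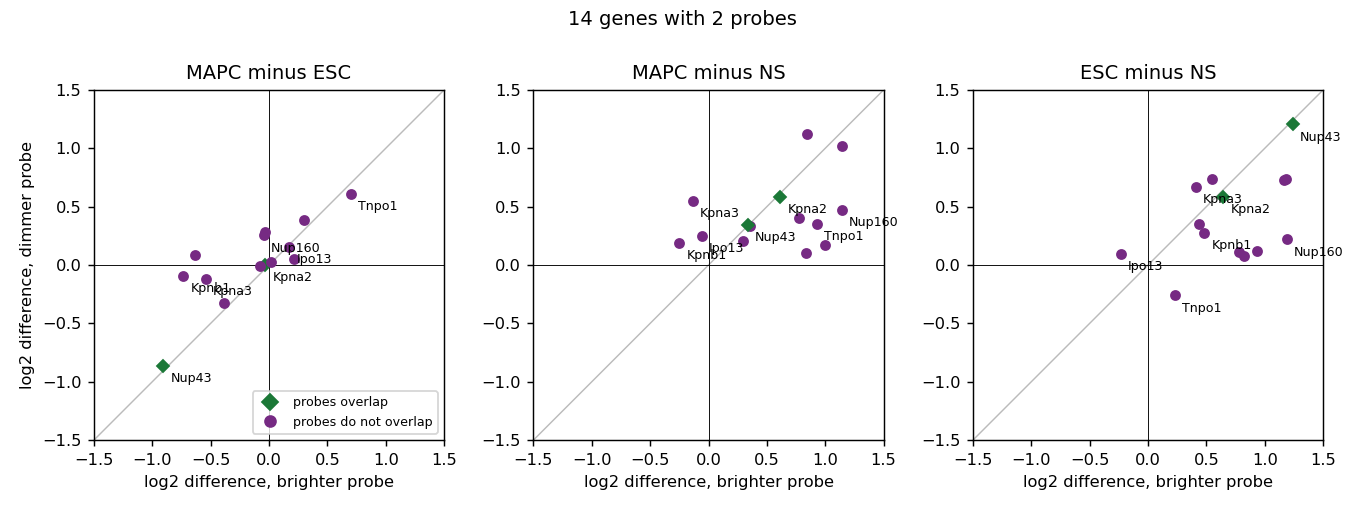
Log2 difference by the brighter probe (x axis) and the dimmer probe (y axis) of 14 genes in the 3 comparisons, with the line of equal values in grey. Green diamonds mark Kpna2 and Nup43, whose probes overlap by 51 and 40 bases and lie near the line; Kpna3, Kpnb1 and Ipo13 lie in the upper left of the middle panel, with a negative value by the brighter probe and a positive one by the dimmer.

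Most promoters found for these genes were rich in GC and CpG, a property that the choice of members did not use. RefSeq promoters on build GRCm38.p6, 300 bases around the start of the gene, were found for 24 of the 31 genes. Their median GC content was 66.3%, against 52.7% over 27025 genes, and their median number of CpG dinucleotides was 29, against 7. Of the 24, 23 lay above each of these medians of all genes, and Nup160, with 50.7% GC and 6 CpG, lay below both. The GC box (GGGCGG) occurred on either strand in 79.2% of the members' promoters and in 35.9% of all. The inverted CCAAT box (ATTGG) occurred in 54.2% and 37.9%, the E-box (CACGTG) in 16.7% and 7.24%, and the ETS core (CCGGAA) in 25% and 15.2%. The TATA box (TATAAA) occurred in 12.5% and 14.2%. None of these motifs contains another, and the shares were not adjusted for GC content, which differs between the sets. The 27025 genes were not limited to genes detected on these arrays, whereas all members were detected. The part of this in the differences between the sets was not tested. Of genes with several listed starts, the one listed first was searched.

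Nup37, among the genes most raised in ESC over NS, and Nup210, which differed the other way, are shown as examples. Capitals mark matches on either strand to the ETS core and the inverted CCAAT box in Nup37, at chr10:88146742-88147041 on the plus strand, and to the GC box in Nup210, at chr6:91116777-91117076 on the minus strand. A match is a run of letters and does not show binding.
Nup37 promoter: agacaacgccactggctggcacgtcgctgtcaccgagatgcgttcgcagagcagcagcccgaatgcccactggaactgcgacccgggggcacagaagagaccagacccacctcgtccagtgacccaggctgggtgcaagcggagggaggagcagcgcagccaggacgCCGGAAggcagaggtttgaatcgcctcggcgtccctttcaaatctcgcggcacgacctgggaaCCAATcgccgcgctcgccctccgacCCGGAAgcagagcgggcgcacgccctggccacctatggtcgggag
Nup210 promoter: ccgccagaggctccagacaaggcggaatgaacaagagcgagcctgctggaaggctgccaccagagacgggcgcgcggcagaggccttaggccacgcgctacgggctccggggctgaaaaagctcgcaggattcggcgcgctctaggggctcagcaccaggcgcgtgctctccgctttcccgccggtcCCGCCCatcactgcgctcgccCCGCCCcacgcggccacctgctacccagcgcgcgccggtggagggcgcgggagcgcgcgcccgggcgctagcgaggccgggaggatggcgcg

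Genes of the same machinery outside the naming rule also tended to be lower in NS. Of 18 listed, 13 had a probe, of which 4 were higher and 5 lower in MAPC than in ESC. Against NS, 7 were higher and 1 lower in MAPC, and 9 higher and 1 lower in ESC. The shares called higher were 30.8%, 53.8% and 69.2%, in that order of comparisons, against 21%, 28.8% and 29.4% of named genes. The shares called lower were 38.5%, 7.69% and 7.69%, against 29.3%, 26.3% and 21.6% of named genes. Sec13, a Y complex subunit that also coats transport vesicles, had 0.77 and 0.76 in MAPC, -0.56 and -0.49 in ESC, and -0.67 and -0.75 in NS, so it was high in MAPC alone, by 1.29 over ESC and 1.48 over NS. Seh1l, another Y complex subunit, was called higher than in NS by 0.98 in MAPC and 1.11 in ESC. Ranbp17, a receptor related to the exportins, had 0.77 and 0.52 in MAPC, 2.30 and 1.89 in ESC, and 0.71 and 0.69 in NS, and so was high in ESC alone. Nxt2, a partner in messenger RNA export, had -0.81 and -0.71 in MAPC, -1.48 and -1.41 in ESC, and -0.05 and 0.04 in NS, and was the 1 gene of this list lower in both MAPC and ESC than in NS. Nutf2, which carries Ran into the nucleus, was higher than in NS by 1.01 in MAPC and 0.71 in ESC.

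Genes of the nuclear lamina and inner membrane, which neighbour the pore, were called as follows. Of 12 with a probe, 3 were higher and 3 lower in MAPC than in ESC. Against NS, 7 were higher and 1 lower in MAPC, and 4 higher and none lower in ESC. The shares called higher were 25%, 58.3% and 33.3%, in that order of comparisons, against 21%, 28.8% and 29.4% of named genes. The shares called lower were 25%, 8.33% and 0%, against 29.3%, 26.3% and 21.6% of named genes. The share higher in ESC than in NS thus lay near that of named genes. Tor1aip1, an activator of the torsin ATPase, was higher in MAPC than in ESC by 1.30 and than in NS by 1.40, and Lbr, the lamin B receptor, was higher in ESC than in NS by 1.03. Proliferation genes moved with the pore genes between ESC and NS. Of 21 with a probe, 6 were higher and 9 lower in MAPC than in ESC. Against NS, 9 were higher and 2 lower in MAPC, and 15 higher and 3 lower in ESC. In that order of comparisons, the medians were -0.05, 0.19 and 0.57. The shares called higher were 28.6%, 42.9% and 71.4%, against 21%, 28.8% and 29.4% of named genes. Those called lower were 42.9%, 9.52% and 14.3%, against 29.3%, 26.3% and 21.6% of named genes. Cdc6, which licenses replication origins, had 3.57 and 3.48 in MAPC, 2.79 and 2.80 in ESC, and 1.59 and 1.61 in NS. Other genes of the list went other ways, as the counts show. Bub1 was lower in MAPC than in ESC (-1.06) and than in NS (-0.35), and Ccna2 was lower in ESC than in NS (-0.88). The part of growth rate in the values of the pore and transport genes was not tested.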

How the data were processed

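Per the file headers, the scanner files were made with Agilent Feature Extraction A.7.5.1 and hold the mean intensity and local background intensity of each spot and dye; the processed intensity and log10 ratio deposited by the authors were used as an alternative. The deposited series matrix holds log10 values with column medians from 2.95 to 2.97, whose rule for all spots is unknown; for 89% of spots they differ between arrays as the deposited log ratio does, to within 0.001.

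Signals were corrected with normexp (offset 50) and loess (limma 3.58.1, R 4.3.3 and the data.table package, version 1.17.8), giving log2 ratios of sample to reference. Control and outlier spots were left out, spots of a probe averaged, and the probe with the highest mean intensity stood for its gene. An accession gave a symbol to 15294 of 41006 probes, an older symbol to 72 and a current symbol to 15, while 25625 had none and entered the test by accession. A gene was tested if its Cy3 signal was well above background on both arrays of any group. One lmFit and eBayes fit of 6 arrays (3 residual degrees of freedom, two-sided) gave moderated standard errors and Benjamini-Hochberg adjusted p-values; it was tested on simulated data. With 2 arrays per group no permutation could pass the threshold, and the number of arrays limits precision. Values per array were given for members called with at least a 2-fold difference, all importin alpha and Ran cycle genes and genes with opposing probes, and for further examples chosen after their values were seen. The members and gene lists were chosen with earlier results of these data known.

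Replicate numbers from the titles coincide with the image extraction day in the headers. Replicate differences correlated by 0.1047 between MAPC and ESC, 0.1626 between MAPC and NS and 0.2085 between ESC and NS, so the numbers may pair the arrays. The main fit, which gave the reported values, did not use this pairing. A fit with the replicate block was run as an alternative. The others were background correction, normalization, the reference channel, the choice of probe and the filter on dim probes. Further ones were the arrays in the fit, each array left out and the matrix. The sample channel alone was normalized by quantiles between arrays in place of loess. Columns without a sample numbered 0.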

Additional observations from a re-analysis of the deposited data

How the results depend on the processing

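The counts of genes called higher stayed within 1.5 times of those reported under all 18 alternatives, and so did the counts called lower with the following exceptions. In MAPC minus NS, 5 genes were lower with no background subtraction, against 3. With the sample channel alone, 7 genes were lower in MAPC minus ESC, against 15, and 1 in ESC minus NS, against 2, which was also the count with the mean of a gene's probes. Leaving out each array in turn gave 4 to 6 higher and 13 to 15 lower in MAPC minus ESC, 23 higher and 3 lower in MAPC minus NS throughout, and 25 to 27 higher and 1 to 2 lower in ESC minus NS; the lower count fell to 1 without ESC replicate 2 and without NS replicate 1. With the replicate block, 7 genes were higher and 15 lower in MAPC minus ESC, 23 and 3 in MAPC minus NS, and 27 and 2 in ESC minus NS; Ipo13 and Xpo4 became higher in MAPC than in ESC and no other call changed. The day of image extraction repeats the replicate number, so it got no fit of its own. The sample channel alone ended 21 of the calls of single genes, and the cause was not tested. Either a call was lost or made as a sign turned for Kpna3 in MAPC minus NS (0.21) and Tnpo1 in ESC minus NS (-0.0169) with the mean of probes, for Rangap1 in MAPC minus NS (-0.0405) with the sample channel alone, and for the saturated Ran in MAPC minus NS (0.33) and ESC minus NS (0.32) with median centring; the first 2 follow from probes that differ, and the cause of the others was not tested. The sign also turned in at least 1 alternative, with no call either way, for 9 further differences that were not called, among them those of Ipo13 between MAPC and NS and of Nup160 and Rcc1 between MAPC and ESC. Signal near background limits the sizes given for Nup210, Kpna6, Ipo7, Xpo4 and Xpo6.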
